A study of Mus musculus with 37 samples.

Results

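Late 2-cell mouse embryos that lacked maternal BAP1 were compared with control embryos of the earlier, early 2-cell stage, gene by gene. The comparison holds 6 of the 37 RNA-seq libraries of the series. These are 3 knockout late 2-cell libraries, from mothers carrying Gdf9-iCre and Bap1flox/flox, and 3 control early 2-cell libraries, from Bap1flox/flox mothers without iCre. Both kinds of mother were crossed to B6, so every embryo received a wild-type paternal Bap1 allele and the knockout is maternal only, made by an iCre that the Gdf9 promoter drives in growing oocytes. The embryos were cultured in KSOM, and their total RNA was made into libraries with Takara's SMART-Seq Stranded kit. Because stage and genotype both differ between these groups, their parts in a difference cannot be told apart from this contrast alone. The 2 control late 2-cell libraries (Bap1flox/flox x B6) were therefore used as the end point of the control course, and the 3 knockout early 2-cell libraries as context. The question was which genes a plain delay of the knockout embryo would leave at the control early 2-cell level, and which stood elsewhere.

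A newly fertilized mouse embryo runs on RNA and protein stored by the oocyte. During the 2-cell stage the embryonic genome is activated in a large wave: transient 2-cell genes such as the Zscan4 family come on and go off again, genes for ribosomes and nucleoli come on, and stored maternal RNAs are cleared. BAP1 is a deubiquitinase that works together with ASXL proteins and removes the ubiquitin that PRC1 places on histone H2A.

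Levels are in FPKM, a measure of fragments scaled to gene length and library total, and differences are between group means of log2(FPKM + 1). A gene is called where limma's adjusted p was under 0.05. Of 55401 genes listed, 13611 reached 1 FPKM in at least 2 of the 8 libraries of the 3 fitted groups and were tested. FPKM summed to 357363 to 387957 in control early, 371188 to 381737 in knockout late and 404518 to 430784 in control late libraries, and 10838 to 11174, 11623 to 11904 and 11766 to 11942 genes reached 1 FPKM in the same order. The noncoding gene Gm23935 held 12.8% to 19.6%, 15.3% to 17.3% and 20.2% to 23.1% of the sum in the same order. The typical SD between libraries of a group was 0.22, 0.19 and 0.15 on the log2 scale. The number of reads cannot be recovered from these values, so no counting error is given, and the labels do not say whether libraries came from separate collections of embryos, so p-values measure the spread between these libraries, which may be technical.

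Bap1 itself, on chromosome 14 from 31251450 to 31259944 (GENCODE M21, GRCm38, used for every position here), checked the labels. It measured 23.5, 29.2 and 24.8 FPKM in control early, 24.4 and 20.9 FPKM in control late, and 9.69, 11.7 and 10.0 FPKM in knockout late 2-cell libraries. No knockout library reached the lowest control library. The difference was -1.22 ± 0.13 (SE; adjusted p = 4.3e-05) against control early and -1.04 ± 0.15 (SE; adjusted p = 6.5e-04) against control late embryos. In knockout early 2-cell libraries it measured 7.05, 6.67 and 6.77 FPKM.

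Knockout late 2-cell embryos were far from equal to control early 2-cell embryos. Of the 13611 genes, 4280 (31.4%) were higher and 2659 (19.5%) lower, 51% in all. The levels were shown to be within 1 log2 unit of control early for 6449 genes (47.4%) and of control late for 7235 (53.2%). All 3 knockout libraries lay above all 3 control early libraries for 4841 genes (35.6%) and below them for 3158 (23.2%). The median difference over all genes was 0.15, so that the split leans on the scale: after centring on library medians it was -0.07, with 3109 genes higher and 3834 lower, and after quantile normalization -0.02, with 3349 higher and 3553 lower. Gene and list differences below are read beside that median. In such bulk libraries fewer cells and less RNA per cell cannot be told apart. Across the 13611 genes, which are not independent, Pearson's r of knockout late with control early libraries was 0.855 to 0.888, with control late libraries 0.902 to 0.91, and with knockout early libraries 0.82 to 0.876. The 2 control stages correlated with each other at 0.773 to 0.793. By this description the knockout late libraries lay between the control stages, on the side of the late one. The median absolute difference was 0.54 from control early, 0.44 from control late and 0.73 between the control stages.

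**Figure D1:**
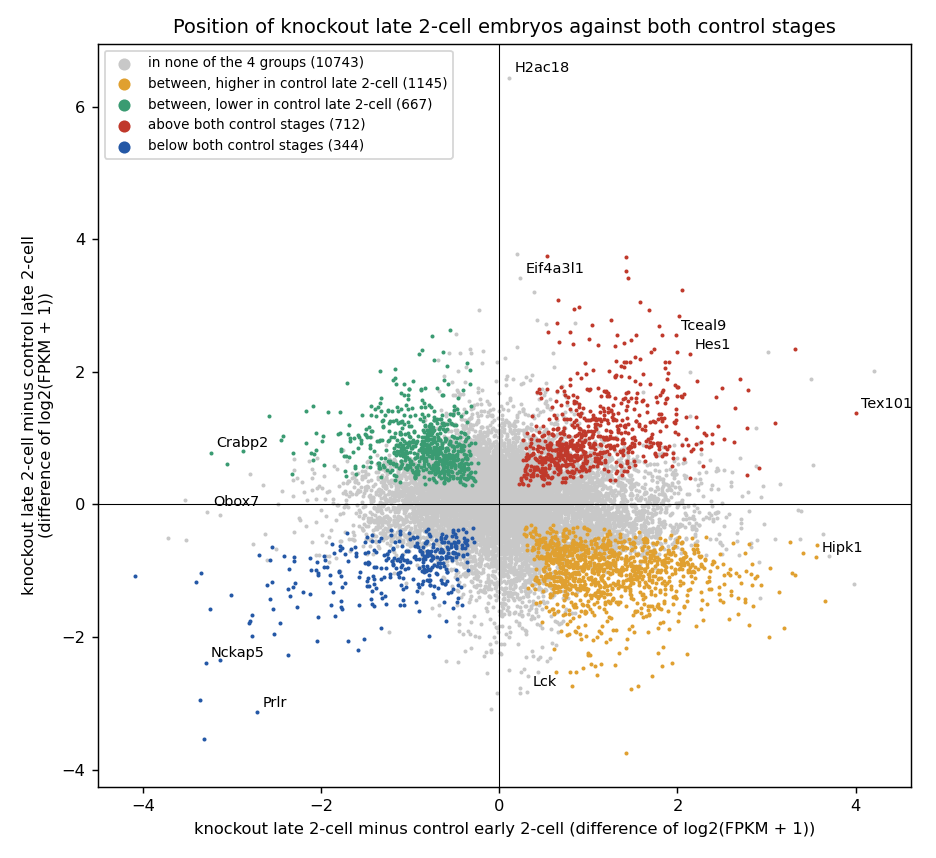
Each point is 1 of 13611 genes, placed by the difference of knockout late 2-cell from control early 2-cell embryos (x) and from control late 2-cell embryos (y), both as differences of mean log2(FPKM + 1). Coloured genes were called in both contrasts: 712 above both control stages, 344 below both, and 1812 between them. Both axes share the knockout libraries, so the points stretch along the rising diagonal by construction.

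The genes that were highest against control early embryos were also higher in control late than in control early embryos. Tex101, a surface protein of germ cells (chromosome 7, 24668007 to 24676675), was listed at 0, 0.428 and 0 FPKM in control early libraries and measured 19, 18.2 and 14.3 FPKM in knockout late ones. Its difference of 4.00 ± 0.24 (SE) had an adjusted p of 1.8e-06. In control late libraries it measured 8 and 4.38 FPKM, so the knockout values were above those too (adjusted p = 0.0036, but 0.12 with a pseudocount of 0.1). Epcam, an epithelial adhesion molecule (chromosome 17, 87635979 to 87651129), measured 1.24, 1.16 and 1.77 FPKM in control early and 27.1, 24.8 and 21.1 FPKM in knockout late libraries, a difference of 3.41 ± 0.15 (SE; adjusted p = 7.5e-07). Mt1, a metal-binding metallothionein (chromosome 8, 94179082 to 94180327), measured 27.6, 9.4 and 7.95 FPKM against 158, 130 and 144 FPKM. All 3 genes were high in control late embryos as well, at 41.3 and 40.5 FPKM for Epcam and 200 and 214 FPKM for Mt1. The other genes among the 10 highest were Rpl10l, Exoc3l2, AA414992, Eid2, Hipk1, Znhit6 and Selenos, with differences from 3.31 to 3.70. Each of these 7 was also at least 3.45 higher in control late than in control early embryos.

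The genes that were lowest did not form 1 pattern. Crabp2, which binds retinoic acid (chromosome 3, 87948666 to 87953376), measured 97.8, 101 and 130 FPKM in control early and 8.08, 15.6 and 9.27 FPKM in knockout late libraries, a difference of -3.24 ± 0.21 (SE; adjusted p = 2.6e-06). It measured 108, 109 and 116 FPKM in knockout early and 5.82 and 5.63 FPKM in control late libraries, so both genotypes were high at the early and low at the late stage. Lcp2, an adapter of immune-cell signalling (chromosome 11, 34046920 to 34092295), went from 22.7, 14.7 and 9.12 FPKM in control early to 0.172, 0.591 and 0.336 FPKM in knockout late libraries. Its knockout early libraries, at 5.46, 2.58 and 0.422 FPKM, already lay below all control early ones. Obox7, Epsti1, Nedd4l, Nckap5, Fam217a, Pdzph1 and both gene models named Zfp813-ps make up the rest of the 10 lowest, with differences from -4.09 to -3.13. In all of these 8 the knockout early libraries also lay below every control early library.

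Where the knockout late level stood on the control course was described on the 1269 genes whose control stages differed by at least 2 log2 units. That choice uses control libraries only. Knockout early libraries do not enter this description, so it gives a position and does not measure a change within the knockout. With control early set at 0% and control late at 100%, the knockout late mean stood at a median of 60.3% of the step (quartiles 45.7% and 73.5%). It stood at 61.8% for the 987 genes higher in control late and at 52.7% for the 282 genes lower there. These percentages were computed on the main scale only. There the median difference from control early over all genes was 0.15, and -0.07 after centring on library medians. The gap between the 2 directions depends on that scale and was not tested. The knockout mean was nearer the early than the late control mean for 397 of the 1269 genes (31.3%), below 0% for 24 and past 100% for 35. The percentages share the control libraries with the choice of genes, so they are a description. A level strictly between the stages, called against both, held for 846 of these genes (66.7%). On this scale 0% stands for an embryo held exactly at the control early stage. Whether a shorter delay accounts for the values was not tested.

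Few genes with a large stage difference were shown to be at the control early level. This was tested with 2 one-sided tests that the difference from control early lay within 1 log2 unit (adjusted p under 0.05), together with a called difference of at least 2 from control late embryos. It held for 27 genes that were higher in control late (0.198% of all genes tested) and 23 that were lower there (0.169%). Of the 1269 genes whose control stages differed by at least 2 log2 units, 46 were at the early level. With an equivalence margin of 0.5 no gene passed, and without control early replicate 1 the 50 became 33. A gene that did not pass is not thereby shown to differ from control early embryos. Lck, a Src-family kinase (chromosome 4, 129548344 to 129573641), measured 0.154, 0.0587 and 0 FPKM in control early, 0, 0.683 and 0.393 FPKM in knockout late, and 6.84 and 10.3 FPKM in control late libraries. Its difference from control early was 0.31 (95% interval -0.23 to 0.86) and from control late -2.83 ± 0.28 (SE; adjusted p = 1.1e-04). The knockout and early control libraries overlapped, and both control late libraries stood above them.

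Socs3, the feedback inhibitor of cytokine receptors (chromosome 11, 117966079 to 117970047), measured 4.15, 2.16 and 2.28 FPKM in control early, 2.27, 2.78 and 4.42 FPKM in knockout late, and 25.7 and 18.6 FPKM in control late libraries. Its difference from control early was 0.11 (95% interval -0.46 to 0.68). Gins3, a subunit of the GINS replication complex, followed with 0.743, 0.605 and 1.26 FPKM in knockout late against 7.85 and 8.29 FPKM in control late libraries. The small-subunit ribosomal protein gene Rps18 measured 3.84, 6.01 and 8.24 FPKM against 32.1 and 33.1 FPKM, with 23.7% of its exonic words of 50 bases also found in other genes. The fifth gene named at this level was Trmt61b, which carries the name of a mitochondrial RNA methyltransferase. Its gene model is annotated as antisense and overlaps Spdya.

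Genes that were lower in control late embryos, and at the control early level in knockout late embryos, included members of near-identical families. The Zscan4 family marks the transient 2-cell programme. Zscan4f (chromosome 7, 11397915 to 11402318) measured 63.8, 60.3 and 33.9 FPKM in control early, 68.8, 55.0 and 53 FPKM in knockout late, and 10.7 and 10.3 FPKM in control late libraries. It differed from control early by 0.20 ± 0.21 (SE) and from control late by 2.37 ± 0.24 (SE; adjusted p = 1.2e-04). Its knockout early libraries were uneven, at 40.1, 6.46 and 41.3 FPKM. Of its exonic words 86.8% recur in other genes, so the family's members cannot be separated with confidence. Eif4a3l1, a relative of the RNA helicase gene Eif4a3 on chromosome 6, measured 25.4, 31.2 and 20.7 FPKM in control early, 38.1, 27.4 and 25.9 FPKM in knockout late, and 1.99 and 1.83 FPKM in control late libraries. Its relative Eif4a3l2 measured 17.8, 22.7 and 18.9, then 18.4, 16.4 and 12.2, then 2.54 and 1.97 FPKM in the same order. In knockout early libraries Eif4a3l1 measured 19.2, 8.85 and 19.7 FPKM, below its knockout late libraries, and Eif4a3l2 8.2, 8.2 and 29.9 FPKM. They share 47.5% and 63.4% of their words with other genes.

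Psenen, a gamma-secretase subunit (chromosome 7, 30561863 to 30563627), measured 97, 101 and 106 FPKM in control early, 70.4, 66.4 and 69.9 FPKM in knockout late, and 9.85 and 10.8 FPKM in control late libraries. It was within 1 log2 unit of control early but still lower (-0.55 ± 0.09, SE; adjusted p = 6.1e-04). The largest difference from control late embryos in this group was that of the histone gene H2ac18, at 174, 252 and 202 FPKM in knockout late, 186, 237 and 159 FPKM in control early and 1.53 and 1.28 FPKM in control late libraries. Its value is uncertain, since Gm20633 and Gm20634 overlap 100% of its exonic sequence. In knockout early libraries H2ac18 measured 1.16, 203 and 2.34 FPKM, so libraries of 1 group fell on both sides. Gm20634 averaged 31.96 FPKM in knockout early libraries, 6.57 FPKM in knockout late and 5.49 FPKM in control early libraries, where H2ac18 was high, and 21.6 FPKM in control late libraries, where H2ac18 was low.

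**Figure D2:**
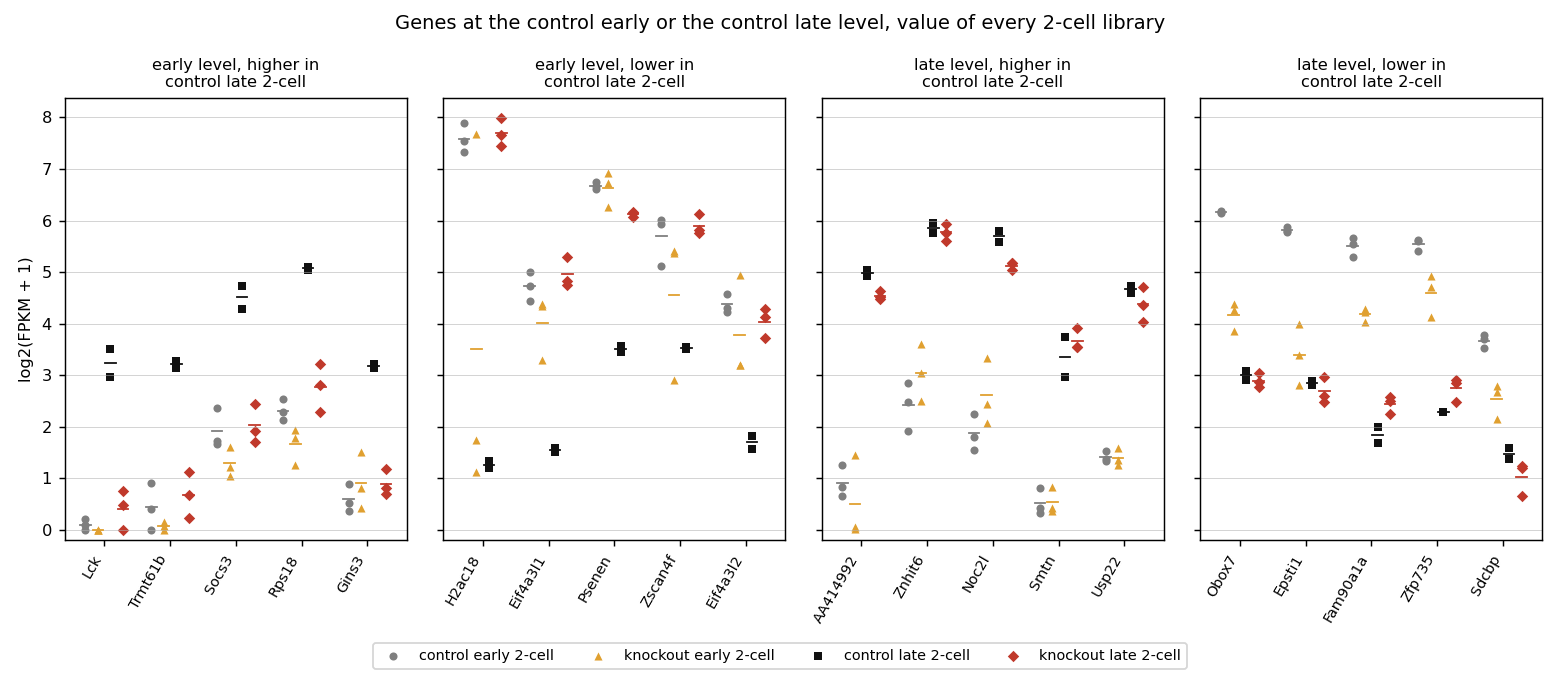
Value of every 2-cell library, as log2(FPKM + 1), for the genes named at the control early level (left panels) and at the control late level (right panels), with a bar at each group mean. The knockout late mean (red diamonds) lies within 1 log2 unit of control early (grey circles) in the 2 left panels. In the 2 right panels it lies within 1 log2 unit of control late (black squares). Psenen was still called different from control early, and Noc2l and Fam90a1a from control late.

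The same kind of test placed genes at the control late level: 106 that were higher in control late (0.779% of all genes tested) and 29 that were lower there (0.213%). Of the 1269 genes whose control stages differed by at least 2 log2 units, 113 were at the late level. Against the 50 at the early level, the 135 became 75 beside 55 without control late replicate 1, which kept the order of the 2 counts. Without control late replicate 2 they were 62 beside 63, which ended that order. Znhit6, an assembly factor of small nucleolar RNPs (chromosome 3, 145576205 to 145604795), measured 6.15, 4.59 and 2.77 FPKM in control early, 60, 47.9 and 53.5 FPKM in knockout late, and 61.3 and 53.1 FPKM in control late libraries. Its difference from control late was -0.09 (95% interval -0.60 to 0.42) and from control early 3.36 ± 0.21 (SE; adjusted p = 2.0e-06). Usp22, the deubiquitinase of the SAGA coactivator (chromosome 11, 61151785 to 61175055), went from 1.57, 1.52 and 1.86 FPKM in control early to 25.3, 15.4 and 19.6 FPKM in knockout late libraries, beside 25.6 and 23.2 FPKM in control late ones. Klf5, a transcription factor of the early embryo, measured 5.78, 2.78 and 2.53, then 26.4, 22.5 and 26.8, then 26.1 and 31.5 FPKM in the same order. These genes had come on in knockout embryos to within 1 log2 unit of the control late level.

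Among genes that control embryos lower by the late stage, Obox7, an oocyte-specific homeobox gene (chromosome 7, 14659496 to 14665996), measured 70.6, 69.5 and 72.1 FPKM in control early, 7.18, 6.29 and 5.77 FPKM in knockout late, and 6.53 and 7.45 FPKM in control late libraries. Its difference from control late was -0.11 (95% interval -0.40 to 0.18). Its knockout early libraries measured 19.7, 13.6 and 18.2 FPKM and already lay below the control early libraries. Of Epsti1, Fam90a1a, Zfp735 and Sdcbp, also within 1 log2 unit of control late, only Fam90a1a was called against it (0.61 ± 0.18, SE; adjusted p = 0.024). Each shared with Obox7 the feature that knockout early libraries lay below every control early library. Rbbp7, a histone-binding subunit of PRC2 and other complexes, did not: it measured 398, 416 and 516 FPKM in control early, 453, 461 and 468 FPKM in knockout early, 101, 104 and 111 FPKM in knockout late, and 89.9 and 87.6 FPKM in control late libraries.

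Levels called strictly between the 2 control stages outnumbered those outside both: 1145 genes that were higher in control late (8.41%) and 667 that were lower there (4.9%). Without control late replicate 1 or 2 the 1812 became 1079 and 1141. Npl, a lyase of sialic acid breakdown (chromosome 1, 153503015 to 153550045), measured 0.947, 0.498 and 0.718 FPKM in control early, 5.93, 5.67 and 7.71 FPKM in knockout late, and 34.1 and 34.5 FPKM in control late libraries. It differed by 2.11 ± 0.17 (SE; adjusted p = 9.2e-06) and -2.26 ± 0.19 (SE; adjusted p = 6.3e-05) from the 2 stages. Calcoco2, an autophagy receptor, measured 4.71, 2.99 and 3.42, then 17.5, 14.4 and 17.6, then 58 and 68.3 FPKM in the same order. Of the genes going down, Vta1, a factor of endosomal sorting (chromosome 10, 14654755 to 14705560), measured 42.3, 52.9 and 37.8 FPKM in control early, 12.6, 13.8 and 11.9 FPKM in knockout late, and 3.02 and 2.75 FPKM in control late libraries. Rgs2, a regulator of G protein signalling, measured 48.1, 45.4 and 32.2, then 7.03, 8.86 and 11.1, then 2.41 and 2.67 FPKM. In each of these 4 genes the knockout late libraries overlapped neither control stage.

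The knockout late level of other genes lay outside the range of both control stages. With 2 control time points, a gene that peaks or dips between them cannot be told apart from one that leaves the control course. All 3 knockout late libraries lay above all 5 control libraries for 1377 genes (10.1%) and below them for 751 (5.52%). Above both stages lay 712 genes (5.23%), 89.9% of which differed by less than 1 log2 unit between the control stages, against 63.2% of all genes tested. The rule for this group, 2 called differences of the same sign, itself favours genes with a small control difference. The share is therefore not a finding about these genes. Without control late replicate 1 or 2 the count above both stages was 419 and 427. Hes1, a transcriptional repressor downstream of Notch (chromosome 16, 30064384 to 30067796), measured 26.8, 30.1 and 30 FPKM in knockout late libraries. It measured 9.87, 5.84 and 3.25 FPKM in control early and 3.60 and 7.37 FPKM in control late libraries, which overlapped each other and stayed below every knockout library. The differences were 2.14 ± 0.31 (SE; adjusted p = 3.4e-04) and 2.27 ± 0.35 (SE; adjusted p = 0.0011). The knockout early libraries were not high, at 9.51, 2.60 and 4.03 FPKM.

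Tceal9, of the transcription elongation factor A-like family (chromosome X, 136245079 to 136247139), measured 7.26, 12.3 and 6.23 FPKM in knockout late libraries and at most 1.49 FPKM in the 5 control libraries. Aqp3, a channel for water and glycerol (chromosome 4, 41092722 to 41098183), measured 2.98, 7.69 and 4.83 FPKM, against at most 1.08 FPKM in the controls. Its adjusted p against control late was 0.0053, but 0.0576 without control late replicate 1 and 0.0531 with a pseudocount of 0.1. The pseudogenes Vmn2r-ps61 and Ppp1r2-ps7 were also above both stages. Tead1, a partner of YAP in transcription, measured 7.26, 8.26 and 6.53 FPKM in knockout late, 1.08 to 1.52 FPKM in control early and 1.75 and 1.71 FPKM in control late libraries. Its knockout early libraries, at 3.73, 4.82 and 7.61 FPKM, already exceeded every control library.

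Below both stages lay 344 genes (2.53%). Of them 88.7% differed by less than 1 log2 unit between the control stages, a share that the same rule favours. Without control late replicate 1 or 2 the count was 183 and 172. Prlr, the prolactin receptor (chromosome 15, 10177238 to 10349180), measured 18, 18.4 and 18 FPKM in control early and 23.9 and 25.1 FPKM in control late libraries. Knockout late libraries measured 2.01, 1.99 and 1.71 FPKM, 9.52-fold under the control early mean, and knockout early ones 0.739, 1.07 and 2.03 FPKM. The differences were -2.72 ± 0.12 (SE; adjusted p = 7.5e-07) and -3.13 ± 0.14 (SE; adjusted p = 1.5e-06). Pdzph1, named for its PDZ and pleckstrin homology domains (chromosome 17, 58878808 to 58991375), measured 12.6, 7.93 and 13.7 FPKM in control early, 5.44 and 6.63 FPKM in control late, and 0.523, 0.445 and 0.195 FPKM in knockout late libraries. Nckap5 (chromosome 1, 125913620 to 126830799) measured 12.3, 11.3 and 10.0, then 4.38 and 6.81, then 0.279, 0.271 and 0.164 FPKM in the same order. Prxl2a, a peroxiredoxin-like protein, measured 1.13, 1.09 and 0.825 FPKM in knockout late libraries and 5.25 to 8.48 FPKM in the controls. Zfp820, a zinc finger gene (chromosome 17, 21816885 to 21845772), measured 1.97, 2.43 and 2.94 FPKM, against 7.86 to 15.6 FPKM in the controls. Zfp978, the last of the 6, shares 77.4% of its exonic words with other genes of its cluster on chromosome 4.

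**Figure D3:**
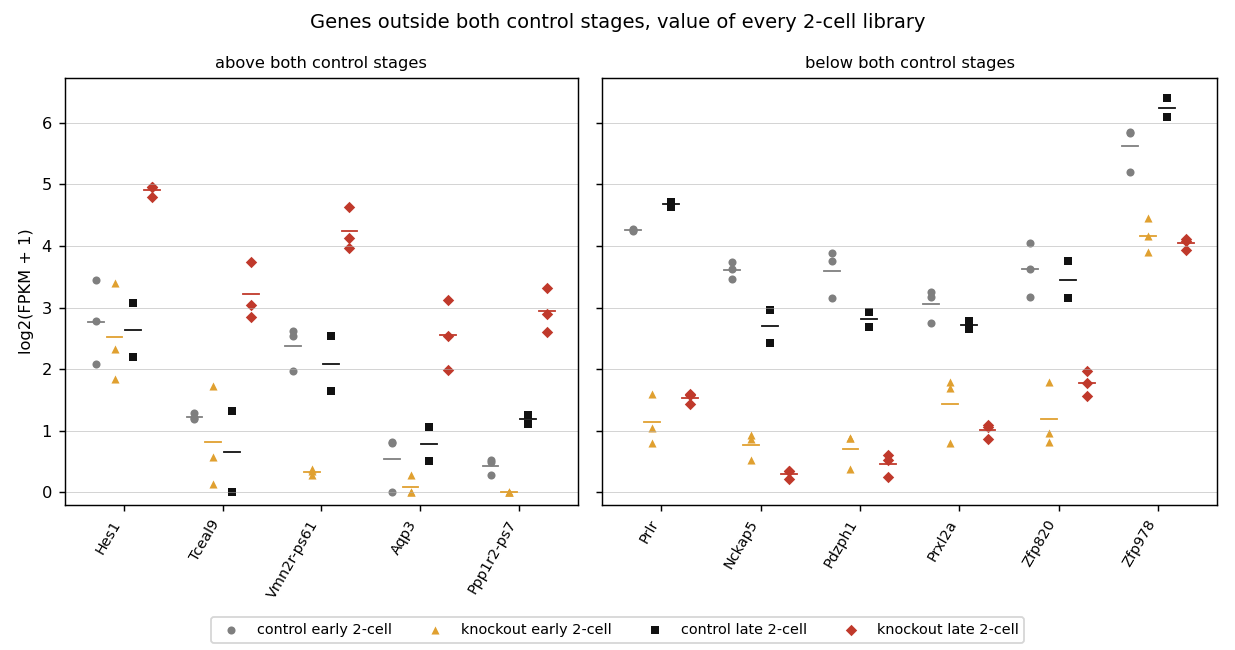
Value of every 2-cell library, as log2(FPKM + 1), for 5 genes above and 6 genes below both control stages, with a bar at each group mean. The knockout late libraries (red diamonds) lie above or below all 5 control libraries for each gene. The knockout early libraries (orange triangles) are low for the genes in the right panel.

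The 250 bases before the start of 2 genes above and 2 genes below both stages are shown to let the start regions be compared. They come from the RefSeq table for GRCm38.p6, which held exactly 1 start for 4 of the 12 genes ranked furthest outside. CG, the dinucleotide that Polycomb-bound CpG islands are rich in and that reads the same on both strands, is in capitals. Tceal9 is at chrX:136244830-136245079 (plus strand), Aqp3 at chr4:41098184-41098433 (minus), Pdzph1 at chr17:58991376-58991625 (minus) and Zfp820 at chr17:21845760-21846009 (minus).
Tceal9: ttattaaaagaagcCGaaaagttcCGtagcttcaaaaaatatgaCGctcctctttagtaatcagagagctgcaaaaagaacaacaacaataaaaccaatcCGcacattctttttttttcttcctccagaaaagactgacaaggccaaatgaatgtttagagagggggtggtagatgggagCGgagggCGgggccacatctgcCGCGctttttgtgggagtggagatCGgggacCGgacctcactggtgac
Aqp3: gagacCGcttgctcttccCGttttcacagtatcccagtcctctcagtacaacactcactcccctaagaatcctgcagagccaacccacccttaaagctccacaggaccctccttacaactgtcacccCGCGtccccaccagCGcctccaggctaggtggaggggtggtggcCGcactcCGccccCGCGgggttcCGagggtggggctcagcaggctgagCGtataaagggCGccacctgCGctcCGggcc
Pdzph1: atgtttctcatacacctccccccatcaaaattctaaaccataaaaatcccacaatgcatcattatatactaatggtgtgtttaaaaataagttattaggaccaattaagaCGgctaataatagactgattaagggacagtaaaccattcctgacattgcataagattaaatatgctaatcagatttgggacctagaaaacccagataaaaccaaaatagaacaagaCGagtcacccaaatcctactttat
Zfp820: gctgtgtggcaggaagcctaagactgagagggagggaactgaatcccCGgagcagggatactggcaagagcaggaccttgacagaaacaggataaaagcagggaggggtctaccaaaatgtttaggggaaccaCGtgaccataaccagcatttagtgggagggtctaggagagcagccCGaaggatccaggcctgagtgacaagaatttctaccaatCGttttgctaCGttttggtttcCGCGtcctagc
CG occurs 10 times before Tceal9, 14 times before Aqp3, 2 times before Pdzph1 and 7 times before Zfp820. Over the 32851 windows of the same length in the table the median was 6 (quartiles 2 and 16), and 92.1% held at least 1. As many or more were found in 37.8%, 29.4%, 81.2% and 46.3% of windows in the order of the genes. These 4 windows describe 4 genes and say nothing of the groups they belong to.

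Genes outside both stages were also looked up in libraries from before the 2-cell stage, which share no library with the contrasts above. In fits of each stage alone, 324 of the 344 genes below both stages reached the filter in fully grown oocytes, and 156 of them (48.1%) were lower in the knockout, where 6.93% of all genes were. The share was 49.8% in MII eggs (162 of 325, background 7.59%) and 53.3% in late 1-cell embryos (177 of 332, background 8.68%). Each of the 3 stages has only 2 control libraries, and libraries were left out in turn for oocytes only. Without control oocyte replicate 1 the oocyte count was 24, and without replicate 2 it was 27, as the calls over all genes fell to 40 and 55. How far the counts in MII eggs and late 1-cell embryos rest on single control libraries was not tested. Prlr averaged 8.31 FPKM in control and 0.308 FPKM in knockout oocytes, and Pdzph1 18.7 and 0.955 FPKM. Of the genes above both stages, 24 of 404 (5.94%) were higher in knockout oocytes, 74 of 396 (18.7%) in MII eggs and 99 of 398 (24.9%) in late 1-cell embryos. The backgrounds were 1.35%, 4.17% and 6.53%. Hes1 averaged under 1 FPKM in both genotypes of all 3 stages. The shares of the 2 groups were not tested against each other, and the comparisons of the 3 stages share no library.

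**Figure D4:**
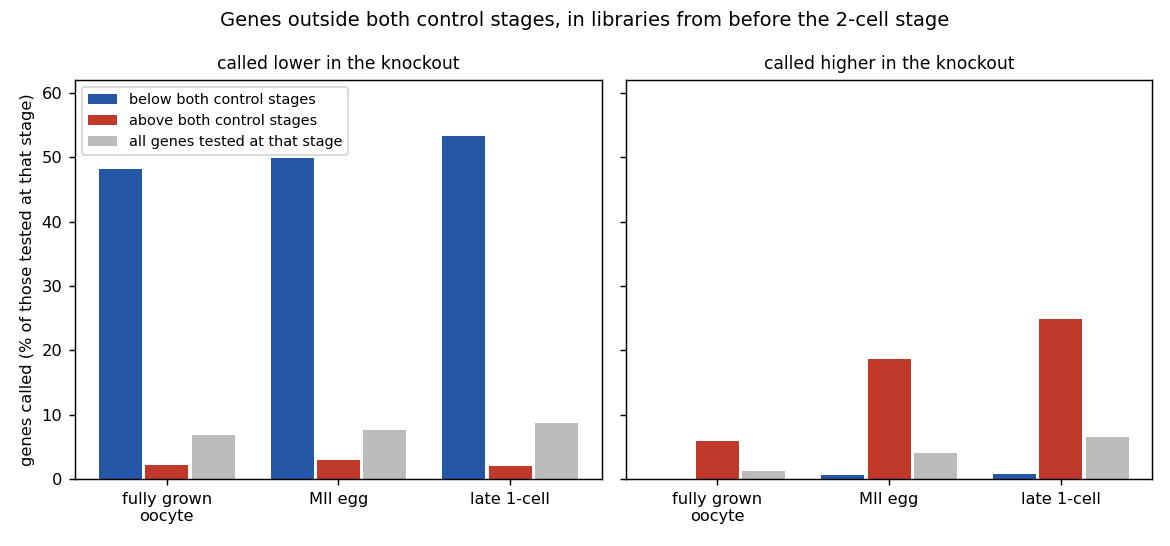
Bars give the share (%) of genes called lower (left) or higher (right) in knockout than in control libraries of the same earlier stage, for genes below both 2-cell control stages, genes above both, and all genes tested at that stage. Among genes below both stages 48.1% to 53.3% were lower, against 6.93% to 8.68% of all genes.

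Gene types and lengths are given for both groups outside the control stages. Protein-coding genes were 70.4% of those above and 88.7% of those below both stages, against 79.7% of all genes tested. Genes called between the stages and higher in control late were protein coding in 94.8%. Median exonic length was 2839 bases above, 4430 bases below and 3612 bases over all, and among protein-coding genes alone 4268, 4785 and 4444 bases. Numbered Zfp genes were 14 of the 344 below (4.07%), against 2.07% of all. Of these 14, Zfp978, Zfp980 and Zfp984 lay on chromosome 4, Zfp141, Zfp583 and Zfp646 on chromosome 7, Zfp229, Zfp820 and Zfp946 on chromosome 17, and 1 each on chromosomes 1, 2, 5, 8 and 15. None of these shares was tested.

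Gene lists were read beside all genes tested, of which 31.4% were higher and 19.5% lower than in control early embryos. Of 35 transient 2-cell genes tested, 12 were higher (34.3%) and 6 lower (17.1%), shares near those of all genes, with a median difference of 0.37 beside 0.15 over all genes. The lean was lost after centring on library medians (10 higher, 11 lower) and without control early replicate 3 (10 and 10), and quantile normalization gave 11 and 10. Against control late embryos 23 were higher and 3 lower (median 1.21, over all genes 0.03), where 16.9% and 16.8% of all genes were. The list held 6 genes above both stages, 5 at the early level and 6 between. Over all 13611 genes these counts were 712, 50 and 1812. The 6 between became 11, 10 and 10 after centring, after quantile normalization and without control early replicate 3. Tmem92 measured 85.7, 73.6 and 75.5 FPKM in knockout late libraries and 18.2 to 35.1 FPKM in the 5 control libraries. Zfp352, a defining marker of the 2-cell embryo, averaged 105 FPKM in knockout late, 58.4 FPKM in control early and 32.7 FPKM in control late libraries. Duxf3, an activator of this programme, averaged 1.82, 4.86 and 0.457 FPKM in the same order, a level called between the stages. Tdpoz1 and Usp17lb, at 11.8 to 29 and 43.3 to 63.6 FPKM in knockout late libraries, were called higher than in control early embryos but not against control late ones.

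Obox homeobox genes, regulators of genome activation, were higher in 11 and lower in 5 of the 20 tested of 55 listed (median 0.95). Their summed level went the other way, from 1540 to 1620 FPKM in control early to 770 to 887 FPKM in knockout late libraries, with 631 to 644 FPKM in control late ones. Obox1 measured 548, 623 and 590 FPKM in control early, 124, 139 and 124 FPKM in knockout late, and 48.5 and 47.0 FPKM in control late libraries. It shares 57.4% of its words with its relatives. Of 12 Pramel and Pramef genes 7 were higher and 2 lower. Pramel7, which acts in preimplantation embryos, measured 5.41, 6.07 and 6.37 FPKM in control early, 19.2, 7.78 and 9.13 FPKM in knockout late, and 92.1 and 70.4 FPKM in control late libraries. Its difference from control early of 0.81 ± 0.27 (SE; adjusted p = 0.028) was lost without control early replicate 1 (0.0755) or replicate 2 (0.0582) and after centring on library medians (0.10). Activating factors of the early embryo were higher in 17 (54.8%) and lower in 6 (19.4%) of 31, and in 11 and 6 after centring. Their summed level was 1910 to 2030 FPKM in control early and 1490 to 1570 FPKM in knockout late libraries, again the other way. In control late libraries it was 1550 to 1580 FPKM, lower than in control early ones too. Developmental regulators, chosen by the symbol of their family, were higher in 29 and lower in 8 of 59. Above both stages lay 9 of them and below none, where 5.23% and 2.53% of all genes lay. The 9 became 4 and 3 without control late replicate 1 or 2, as the count over all genes went from 712 to 419 and 427. Foxi3, a forkhead factor, rose to 7.18, 14.2 and 13.9 FPKM from 0.405 to 0.717 FPKM, beside 10.5 and 7.92 FPKM in control late libraries.

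By their medians, ribosomal protein genes stood between the control stages. Of 89 ribosomal protein genes 68 were higher and 1 lower than in control early embryos (median 0.97), and none was higher and 65 lower than in control late embryos (median -0.83). A position between the stages, higher in control late, was called for 54 of the 89, where 8.41% of all genes had it. Without control late replicate 1 or 2 the 54 became 37 and 39, and the 65 became 46 and 49. TPM scaling gave 41 between and 51 lower than in control late embryos. Rplp1, of the ribosomal stalk (chromosome 9, 61913284 to 61914542), measured 37.6, 25.2 and 30.5 FPKM in control early, 161, 130 and 137 FPKM in knockout late, and 292 and 279 FPKM in control late libraries. Rps19 measured 7.71, 6.29 and 6.18, then 32.1, 33.4 and 31.4, then 54.8 and 68.5 FPKM in the same order. Ribosomal protein genes have many processed copies, and 60% of the words of Rplp1 recur elsewhere. Their summed level was 1350 to 1400 FPKM, 2670 to 2920 FPKM and 4920 to 4970 FPKM in the same order, with no overlap between groups.

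Of 96 ribosome biogenesis genes 61 were higher and 7 lower than in control early embryos (median 0.73), and 2 were higher and 72 lower than in control late ones (median -0.80). The 72 became 49 and 56 without control late replicate 1 or 2, and 57 with TPM scaling. Nop2, an RNA methyltransferase of the nucleolus, measured 3.89, 1.77 and 1.87 FPKM in control early, 22.3, 17 and 18.4 FPKM in knockout late, and 39.9 and 40.5 FPKM in control late libraries. Taf1d, of the RNA polymerase I machinery, was at the late level, at 198, 135 and 143 FPKM beside 139 and 131 FPKM. Translation factors were higher in 21 (39.6%) and lower in 14 (26.4%) of 53, a lean that turned after centring (16 and 18). Eif3c measured 8.19, 7.30 and 5.74, then 27.8, 22.6 and 30.4, then 80.4 and 81.7 FPKM. Eif1b, which takes part in start codon choice, went the other way, from 106, 122 and 95 FPKM to 28.6, 40.4 and 37.2 FPKM, with 17.2 and 15.8 FPKM in control late libraries. Aminoacyl-tRNA synthetases were higher in 6 and lower in 7 of 17 (median -0.24). Chaperones of the chaperonin and heat shock families were higher in 12 and lower in 2 of 23, and the 2 became 6 after centring. Proteasome subunits leaned down against both stages, with 10 higher and 16 lower of 44 (median -0.14) against control early and 6 higher and 16 lower (median -0.43) against control late. Without control late replicate 1 or 2 the latter counts were 3 and 10, and 2 and 7. Spliceosome genes were higher in 21 and lower in 15 of 46 (14 and 19 after centring, 16 and 16 after quantile normalization), with a median of 0.10 that was -0.12 under the lowest of the other scalings.

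**Figure D5:**
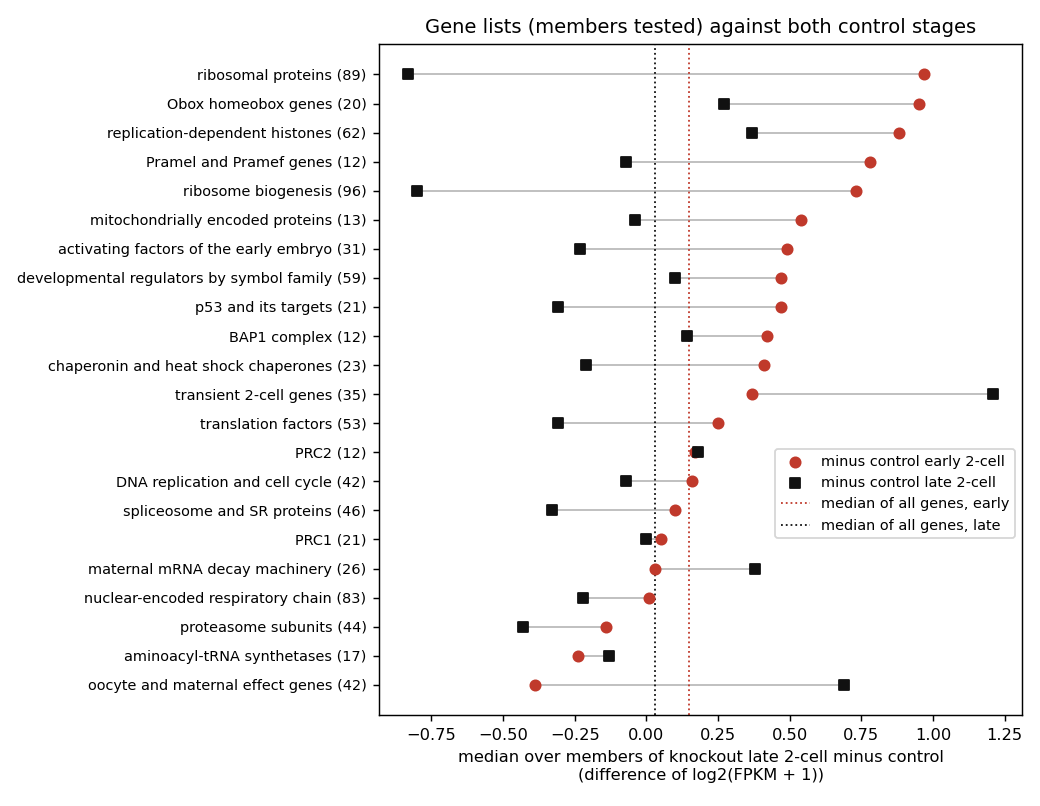
Median over the tested members of each list (number in brackets) of the difference of knockout late 2-cell from control early 2-cell (red circles) and from control late 2-cell embryos (black squares), on the log2(FPKM + 1) scale. Dotted lines mark the medians of all 13611 genes, 0.15 and 0.03. Ribosomal protein and ribosome biogenesis lists lie right of 0 by the first and left of 0 by the second measure, and oocyte genes the reverse.

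Maternal RNAs stood above the control late and below the control early level more often than the reverse. Of 42 oocyte and maternal effect genes 22 were lower and 6 higher than in control early embryos (median -0.39; 25 and 3 after centring), and 29 were higher and none lower than in control late embryos (median 0.69). A position between the stages, lower in control late, was called for 16 of the 42, where 4.9% of all genes had it. The 29 became 20 without either control late library, and the 16 became 12 and 13 without replicate 1 or 2. Bcl2l10, an apoptosis regulator abundant in oocytes, measured 606, 618 and 977 FPKM in control early, 161, 180 and 163 FPKM in knockout late, and 95.4 and 101 FPKM in control late libraries. Its adjusted p against control late was 0.0091, and 0.066 without control late replicate 1. Zbed3, a component of the maternal complex under the oocyte surface, measured 6386 to 7932 FPKM in control early and 1855 to 2231 FPKM in knockout late libraries. The summed level of the list was 13200 to 15800 FPKM in control early, 6810 to 7590 FPKM in knockout late and 4590 to 5000 FPKM in control late libraries, again without overlap. The machinery that removes maternal mRNA was split, with 10 of 26 genes higher and 9 lower. After centring 5 were higher and 12 lower, after quantile normalization 8 and 11, and the median of 0.03 ranged from -0.18 to 0.10. Zfp36l2, which binds AU-rich mRNA and recruits deadenylases, lay above both stages, at 11.6, 14.5 and 17.8 FPKM against 3.70 to 6.06 FPKM in the controls. Its knockout early libraries measured 9.90 to 11.8 FPKM.

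Chromatin genes were mixed. All 12 genes of the BAP1 complex list were called, 8 higher and 4 lower than in control early embryos. After centring and after quantile normalization 3 were higher and 4 lower, and TPM scaling gave 6 higher. Without knockout late replicate 1 or 2 or control early replicate 2 the 8 became 5. Ube2o, a ubiquitin-conjugating enzyme that acts on BAP1, measured 4.59, 5.53 and 3.30 FPKM in control early, 29.5, 23.2 and 27.5 FPKM in knockout late, and 73.0 and 59.8 FPKM in control late libraries. Kdm1b, a histone demethylase of oocytes, measured 55.3, 63.0 and 62.9, then 25.5, 31.7 and 31.4, then 17.1 and 18.8 FPKM. PRC1 genes were higher in 9 and lower in 3 of 21, and PRC2 genes higher in 5 and lower in 3 of 12 (after centring 6 PRC1 genes were lower, and 3 PRC2 genes higher and 4 lower), with medians of 0.05 and 0.17 that turned to -0.17 and -0.04 under the lowest of the other scalings. Pcgf5, a subunit of variant PRC1, rose to 30.1, 32.3 and 28.7 FPKM from 5.77, 7.13 and 1.82 FPKM, beside 44.2 and 54.0 FPKM in control late libraries. Replication-dependent histone genes were higher in 43 and lower in 1 of 62 (median 0.88). Against control late embryos 17 were higher and none lower (median 0.37), where 16.9% and 16.8% of all genes were. Above both stages lay 12 of the 62, where 5.23% of all genes lay. Without control late replicate 1, control late replicate 2 or knockout late replicate 2 the 17 became 9, 11 and 11 and the 12 became 5, 6 and 6. Their RNAs lack a poly(A) tail and many are near copies, such as H3c11 with 87.6% of its words shared. Their summed level was 4140 to 4340 FPKM in knockout late libraries, above the 2490 to 3060 FPKM in control early and the 2790 to 2810 FPKM in control late ones.

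Of the 13 proteins encoded in mitochondria, 8 had higher RNA than in control early embryos and none lower (median 0.54), while the mitochondrial genome held 7.12% to 7.57% of summed FPKM in knockout late, 4.56% to 5.95% in control early and 7.2% to 7.39% in control late libraries. Nuclear genes of the respiratory chain were higher in 28 and lower in 13 of 83, with a median of 0.01 that changed sign with the scaling. The counts turned to 13 and 25 after centring and to 16 and 23 after quantile normalization, and without knockout late replicate 2 the 28 became 17. Of 21 genes of p53 and its targets 10 were higher and 2 lower. Sesn2, a stress-induced inhibitor of mTORC signalling, measured 3.31, 2.56 and 1.72 FPKM in control early, 25, 23.8 and 28.5 FPKM in knockout late, and 65.0 and 56.6 FPKM in control late libraries. Trp53 itself was lower than in control early embryos, at 2.75, 3.68 and 3.64 FPKM against 7.82, 8.65 and 10.4 FPKM. Of 42 replication and cell cycle genes 16 were higher and 7 lower (median 0.16, and -0.05 under the lowest scaling), and 13 and 13 after centring. Ccne1, the cyclin of S phase entry, measured 25.2, 16.4 and 19.5, then 88.5, 85.9 and 82.2, then 160 and 148 FPKM.

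Markers of other cells were low in every library. The 17 cumulus and granulosa markers together held 4.64 to 4.82 FPKM in knockout late, 6.29 to 7.71 FPKM in control early and 13.5 to 13.6 FPKM in control late libraries, with 2 of them, Inha and Hsd3b1, at 0 throughout. The 9 sperm markers summed to at most 3.20 FPKM and the 5 blood markers to at most 1.87 FPKM in any 2-cell library. The cumulus sum moved with the groups, and its part in the results above was not tested.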

How the data were processed

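Per the labels, total RNA of embryos (how many per library is not given in the sources used here) was sequenced from 26 libraries, 11 of them from 2-cell embryos. The authors deposited FPKM values, with headers ending in rpkm, 1 column per library. Trim Galore 0.6.6, STAR 2.7.9, StringTie 2.1.7 and the mm10 build are named in the submitters' processing notes. The annotation and the use of strand in counting are not given in the sources used here, so overlapping, antisense and near-identical genes are uncertain. Of 55401 genes, 54349 are in GENCODE M21 with the same version. 0 columns were left without a sample.

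Depth could not be recovered: at the best step 12.4% to 13.3% of low values fell within 0.05 of whole reads, where an even spread gives 10%.

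Values were analysed as log2(FPKM + 1), which understates changes of low genes, keeping those that reached 1 FPKM in 2 or more of 8 libraries (knockout late 2-cell 3, control early 2-cell 3, control late 2-cell 2). The moderated tests of limma 3.58.1 (R 4.3.3, lmFit and eBayes with an intensity trend) gave the p-values, adjusted by Benjamini-Hochberg within each of 3 contrasts at 0.05. The contrasts share libraries. Above, below and between needed both contrasts called. Equal levels used 2 one-sided tests with a margin of 1 and a difference of at least 2 from the other stage. The scripts were tested on simulated data. Tables and plots used Python 3.11.15, pandas 2.3.3 and matplotlib 3.10.9.

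Genes were named by rank: the 10 highest and 10 lowest, 6 above and 6 below both stages, 5 at each equal level and direction, 3 between in each direction, and 3 in each list, with at least 5 FPKM in the higher group, without predicted models. Not every gene that met this rule is reported here. Zfp352, Duxf3 and Gm20634 were added as markers or overlapping genes after their values were seen. The members, lists and tests were chosen with earlier results of these data known. Same-numbered libraries did not deviate together (r from -0.03 to 0.05), so numbers were not used as pairs. Alternatives were another pseudocount, filter, scaling, fit, equivalence margin or size limit, the replicate block and each library left out.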

Additional observations from a re-analysis of the deposited data

How the results depend on the processing

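The higher and lower counts kept within 1.5 times of their values under every pseudocount, filter, scaling and fit tried, though after median centring and quantile normalization lower calls outnumbered higher ones (3109 higher and 3834 lower, 3349 and 3553). A pseudocount of 0.1 gave 29 genes at the early level, 18 of them among the 50, and 100 at the late level, 54 of them among the 135. TPM scaling gave 129 at the late level, 78 of them shared, and no filter on low values 229 below both stages, 215 of them shared. The fit of all 26 total RNA libraries gave 1142 above, 598 below and 2761 between, with 1 estimate of spread for all stages. An equivalence margin of 0.5 gave 0 genes at the early and 0 at the late level with limma. Requiring a difference of at least 1 gave 2173 higher, 966 lower, 205 above, 82 below and 401 between. Leaving out 1 library gave 3711 to 4174 higher, 2197 to 2592 lower, 419 to 763 above, 172 to 346 below, 1079 to 1883 between, 33 to 63 at the early level, 62 to 175 at the late level and, for genes below both stages called lower in oocytes, 24 to 166. Without a control late library the other is assumed to vary like the other groups. Chosen after seeing the data, the requirement that oocyte libraries do not overlap gave 202 such genes where 25.7% of all genes passed, and a pseudocount of 0.1 gave 151. With the replicate number as a block, which does not pair these libraries, the counts were 4183 higher, 2601 lower, 619 above, 292 below, 1579 between, 54 early and 128 late. Of 175 differences called for the named genes, 153 kept direction and call under every alternative applied to them, 22 lost the call under at least 1, and 0 reversed. Noc2l against control late lost it most often (adjusted p 0.044, and 0.0507 to 0.241 where lost). The equivalence margin of 0.5 and the size limit of 1 were not applied to these differences. The fit of knockout late and control early libraries alone covered 104 of them. The 2 control late libraries, the unknown depth and the unknown annotation limit all placements against the late stage.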

Other observations

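Some genes outside the ranking rule were singled out after their values were seen. Below both control stages lay 4 of them. Mrc1, the macrophage mannose receptor, averaged 0.138 FPKM in knockout late, 5.29 FPKM in control early and 2.94 FPKM in control late libraries. Il23r, a cytokine receptor, averaged 0.0999, 6.54 and 3.34 FPKM in the same order, Plek, a substrate of protein kinase C in platelets, 0.354, 8.31 and 3.30 FPKM, and Lpl, lipoprotein lipase, 0.806, 9.5 and 4.41 FPKM. All 4 averaged under 1 FPKM in knockout early libraries too. Above both stages lay Nelfa, a subunit of the negative elongation factor, at 67.7, 36.9 and 38.1 FPKM in the same order. The Notch ligand gene Jag1 was above both stages at 18.99, 13.8 and 10.4 FPKM, while Notch1 averaged 1.03, 0.857 and 0.808 FPKM and was not called in either contrast.

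Cdc5l, a core splicing factor, averaged 2.90 FPKM in control early, 34.6 FPKM in knockout early, 25.8 FPKM in knockout late and 22.3 FPKM in control late libraries, and stood at the control late level. Tor1b, an ATPase of the nuclear envelope and endoplasmic reticulum, averaged 0.112 FPKM in control early, 2.12 FPKM in knockout late and 39.1 FPKM in control late libraries. It was called between the stages, with a difference of -3.75 ± 0.28 (SE) from control late. These values are descriptions of genes picked for them.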
